A study of Homo sapiens with 9 samples.

Results

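A set of 10 genes of metal handling were followed in HT29 cells exposed to coffee or to a phenolic acid found in it: the metallothioneins MT1E, MT1F, MT1G, MT1H, MT1M, MT1X and MT2A, the metal-responsive transcription factor MTF1, the zinc exporter SLC30A1 (ZnT1) and the zinc importer SLC39A4 (ZIP4). The members are all probe sets annotated to exactly 1 of these 10 symbols, which gave 10 of 19775 genes and 18 of 54675 probe sets, 11 for the metallothioneins and 7 for the other 3 genes. HT29 is an established human colon cancer line. The Control group had no treatment, the CA group received caffeic acid at 1.68 µg/mL and the ICC group received instant caffeinated coffee at 7 µg/mL, both over 24 h. Each group has 3 Affymetrix HG-U133 Plus 2.0 arrays. All arrays are of this line, and the labels name no engineered change in it. The labels number the arrays 1 to 3 within each group and do not say whether these were separate cultures, so every p-value measures only the spread between these arrays, which may be technical.

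Metallothioneins are small cysteine-rich proteins that bind zinc and copper and take up metal that would otherwise be free in the cell. When zinc rises, MTF1 binds it, enters the nucleus and acts on metal response elements in the promoters of the metallothioneins and of SLC30A1, which carries zinc out of the cytoplasm. SLC39A4 brings dietary zinc into enterocytes, where its loss causes acrodermatitis enteropathica. The human MT1 genes and MT2A lie side by side on chromosome 16 as close paralogs, and the RefSeq table lists 14 genes and pseudogenes of this family, 9 of them protein-coding, from MT2A to MT1X.

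The promoters are shown because metal response elements are the sequence through which MTF1 acts on both kinds of target. Of the 10 genes 5 had an entry in the RefSeq promoter table (GRCh38.p14), namely MT2A, MT1H, MT1X, SLC30A1 and MTF1, and MT1E, MT1F, MT1G, MT1M and SLC39A4 did not. Each window runs from 250 bases before to 50 bases after the annotated start, 5′ to 3′ on the strand of the gene, and capitals mark the core of the element, TGCACNC or TGCGCNC, on either strand. MT2A lies at chr16:56608334-56608633 and MT1H at chr16:56669564-56669863, both on the plus strand. MT1X lies at chr16:56682220-56682519 on the plus strand and SLC30A1 at chr1:211579112-211579411 on the minus strand.
MT2A: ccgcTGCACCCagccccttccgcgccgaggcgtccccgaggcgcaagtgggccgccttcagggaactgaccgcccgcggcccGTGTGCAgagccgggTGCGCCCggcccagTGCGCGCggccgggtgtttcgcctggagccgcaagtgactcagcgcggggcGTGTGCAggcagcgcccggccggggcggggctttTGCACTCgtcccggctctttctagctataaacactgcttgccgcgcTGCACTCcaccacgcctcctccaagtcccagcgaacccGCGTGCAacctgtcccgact
MT1H: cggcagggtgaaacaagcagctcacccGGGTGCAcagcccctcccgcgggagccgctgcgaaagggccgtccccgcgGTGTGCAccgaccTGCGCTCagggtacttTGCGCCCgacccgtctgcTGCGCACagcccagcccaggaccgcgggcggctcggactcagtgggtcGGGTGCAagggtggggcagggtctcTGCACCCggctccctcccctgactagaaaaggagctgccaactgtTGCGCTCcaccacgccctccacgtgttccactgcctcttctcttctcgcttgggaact
MT1X: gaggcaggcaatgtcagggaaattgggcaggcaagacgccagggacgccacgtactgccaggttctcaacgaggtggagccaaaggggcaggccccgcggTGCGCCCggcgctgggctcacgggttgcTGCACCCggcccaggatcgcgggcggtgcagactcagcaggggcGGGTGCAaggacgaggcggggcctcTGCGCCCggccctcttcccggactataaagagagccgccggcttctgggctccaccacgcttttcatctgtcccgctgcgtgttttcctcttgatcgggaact
SLC30A1: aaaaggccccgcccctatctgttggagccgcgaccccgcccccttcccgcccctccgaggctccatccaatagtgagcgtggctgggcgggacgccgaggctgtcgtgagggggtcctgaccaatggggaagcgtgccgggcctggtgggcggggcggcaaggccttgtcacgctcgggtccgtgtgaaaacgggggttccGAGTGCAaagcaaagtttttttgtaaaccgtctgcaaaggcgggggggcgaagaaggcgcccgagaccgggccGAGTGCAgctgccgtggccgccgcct
The core was found at 8 places in MT2A, 8 in MT1H, 4 in MT1X, 2 in SLC30A1 and 0 in MTF1. Of 35116 promoters of the same length 29.6% held at least 1. At least 8 were held by 0.0171% of promoters (6 in all, MT2A and MT1H among them), at least 4 by 0.339% and at least 2 by 7.51%. These shares take no account of base content. G and C made up 72% of the window of MT2A, 68.3% of MT1H, 67% of MT1X, 68% of SLC30A1 and 69.7% of MTF1. In MT2A, MT1H and MT1X a core lay within 55 bases upstream of the start on the strand of the gene, and in each another lay on the opposite strand between 72 and 88 bases upstream. The core of the antioxidant response element, TGACNNNGC, was found at 1 place each in MT2A, MT1X and SLC30A1 and at 0 in MT1H and MTF1, against 13.3% of promoters with at least 1. A match of letters is a description and not a bound site.

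**Figure D1:**
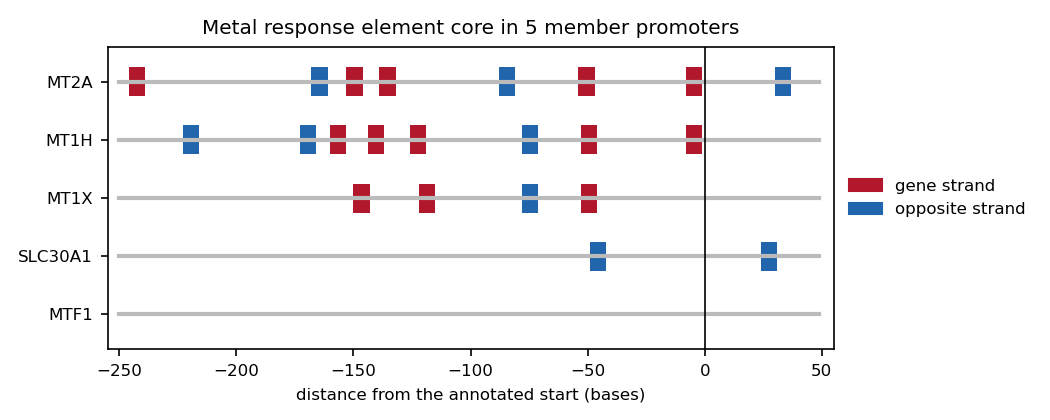
Places of the metal response element core in the 5 member promoters, by distance from the annotated start in bases. MT2A and MT1H hold 8 each, MT1X 4, SLC30A1 2 and MTF1 0, with those on the strand of the gene in red and those on the opposite strand in blue.

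The arrays were alike in level, with medians between 43.8 and 46.6 in linear intensity and correlations between arrays over probe sets between 0.993 and 0.998. Of 8 colon epithelial markers 7 were bright, at the 90.6th percentile of all probe sets (VIL1) or above, and the transcription factor CDX2 was near the middle (56.5th). Markers of other cell types were mixed in brightness. The 4 leukocyte markers measured ran from PTPRC at the 12.4th percentile to CD14 at the 70.5th, and the 4 endothelial ones from KDR at the 5.0th to PECAM1 at the 59.0th. The 5 fibroblast markers ran from LUM at the 13.7th to COL1A1 at the 71.4th, and the 4 hepatocyte ones from ALB at the 28.5th to TTR at the 60.0th.

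Of the 11 metallothionein probe sets 9 were bright and 2 were dim. The brightest metallothionein probe set was that of MT1E, with a mean of 12.15 on the log2 scale over the 9 arrays, in the 99.0th percentile of all probe sets, followed by MT2A at 11.41 (97.9th) and MT1X at 10.95 (96.9th). MT1F at 9.93, MT1G at 9.62 and MT1H at 9.16 lay between the 88.5th and the 93.2nd percentile. Levels of different probe sets also depend on how well each binds its target, so this order is of brightness and not of transcript number. Of the 11 metallothionein probe sets 9 have the suffix _x_at, which the manufacturer gives to sets with probes that can also bind other, similar transcripts. These 9 were the bright ones. The 2 with the suffix _at were dim, namely that of MT1M and a second probe set of MT1G, each with a mean of 3.82 (the 16.6th percentile) and between 12.4 and 16.1 in linear intensity on every array. Signal of the 9 _x_at sets cannot be assigned to a single paralog, and they are not 9 independent measurements.

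The first comparison asked whether either treatment changed metallothionein transcripts. In MT2A, the most widely expressed metallothionein, the Control arrays 1 to 3 stood at 11.56, 11.19 and 11.14, the CA arrays at 11.74, 11.43 and 11.26 and the ICC arrays at 11.74, 11.34 and 11.32 (log2). Each treated array lay above the Control array of its own number, while the groups overlapped because array 1 was high in all 3. The mean difference was +0.18 ± 0.16 for CA and +0.17 ± 0.16 for ICC (log2 ± SE over 3 arrays a group), or 1.13-fold and 1.12-fold, with adjusted p of 0.990 and 0.789 in limma over all probe sets. In CA it was +0.048 without CA array 1, +0.098 without Control array 3, +0.29 without CA array 3 and +0.31 without Control array 1. In ICC it was +0.030 without ICC array 1, +0.087 without Control array 3 and +0.30 without Control array 1. The 95% interval of the MT2A difference was -0.17 to 0.53 in CA and -0.19 to 0.52 in ICC. With the replicate number as a block it was 0.027 to 0.33 in CA and 0.016 to 0.32 in ICC. These intervals are not adjusted for the number of probe sets. The adjusted p in limma with the block was 0.556 in CA and 0.352 in ICC.

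MT1X, a paralog that responds to metal in many cell types, showed the same order. Control stood at 10.99, 10.80 and 10.70, CA at 11.24, 10.94 and 10.90 and ICC at 11.20, 10.92 and 10.88. It differed from Control by +0.20 ± 0.12 in CA (95% interval -0.067 to 0.47, adjusted p 0.986) and by +0.17 ± 0.12 in ICC (-0.096 to 0.44, adjusted p 0.715). With the replicate number as a block these intervals were 0.053 to 0.35 in CA and 0.023 to 0.32 in ICC. They are not adjusted for the number of probe sets, and the adjusted p in limma with the block was 0.524 and 0.330. Again all 3 pairs of the same number were higher in each treatment and the groups overlapped. Without CA array 1 the CA value was +0.095, and the ICC value was +0.069 without ICC array 1 and +0.11 without Control array 3. Its second probe set lay 0.12 and 0.073 above Control.

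MT1F stood at 9.96, 9.81 and 9.70 in Control, 10.19, 9.88 and 9.93 in CA and 10.21, 9.91 and 9.79 in ICC. MT1H stood at 9.29, 9.03 and 8.86 in Control, 9.41, 9.11 and 9.12 in CA and 9.41, 9.11 and 9.12 in ICC. Both were higher in every pair of both treatments, MT1F by 0.18 ± 0.12 in CA and 0.15 ± 0.12 in ICC, and MT1H by 0.15 ± 0.13 in each. MT1G stood at 9.80, 9.46 and 9.32 in Control, 9.81, 9.58 and 9.48 in CA and 10.08, 9.57 and 9.48 in ICC, with its highest value on ICC array 1. Its difference was +0.099 ± 0.17 in CA and +0.18 ± 0.17 in ICC, and the latter was -0.0020 without ICC array 1.

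MT1E, the brightest, moved least. It stood at 12.29, 12.08 and 12.01 in Control, 12.37, 12.08 and 12.12 in CA and 12.28, 12.11 and 12.03 in ICC, a difference of +0.065 ± 0.11 and +0.015 ± 0.11. The ICC value turned to -0.012 when the arrays were scaled again, by quantiles or by their medians. Its second, dimmer probe set lay 0.18 ± 0.11 and 0.16 ± 0.11 above Control, so the 2 sets of this gene disagreed in size. MT1M stood between 3.73 and 4.01 on all 9 arrays and 3 of them held exactly the same value, a level at which no difference could be read.

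**Figure D2:**
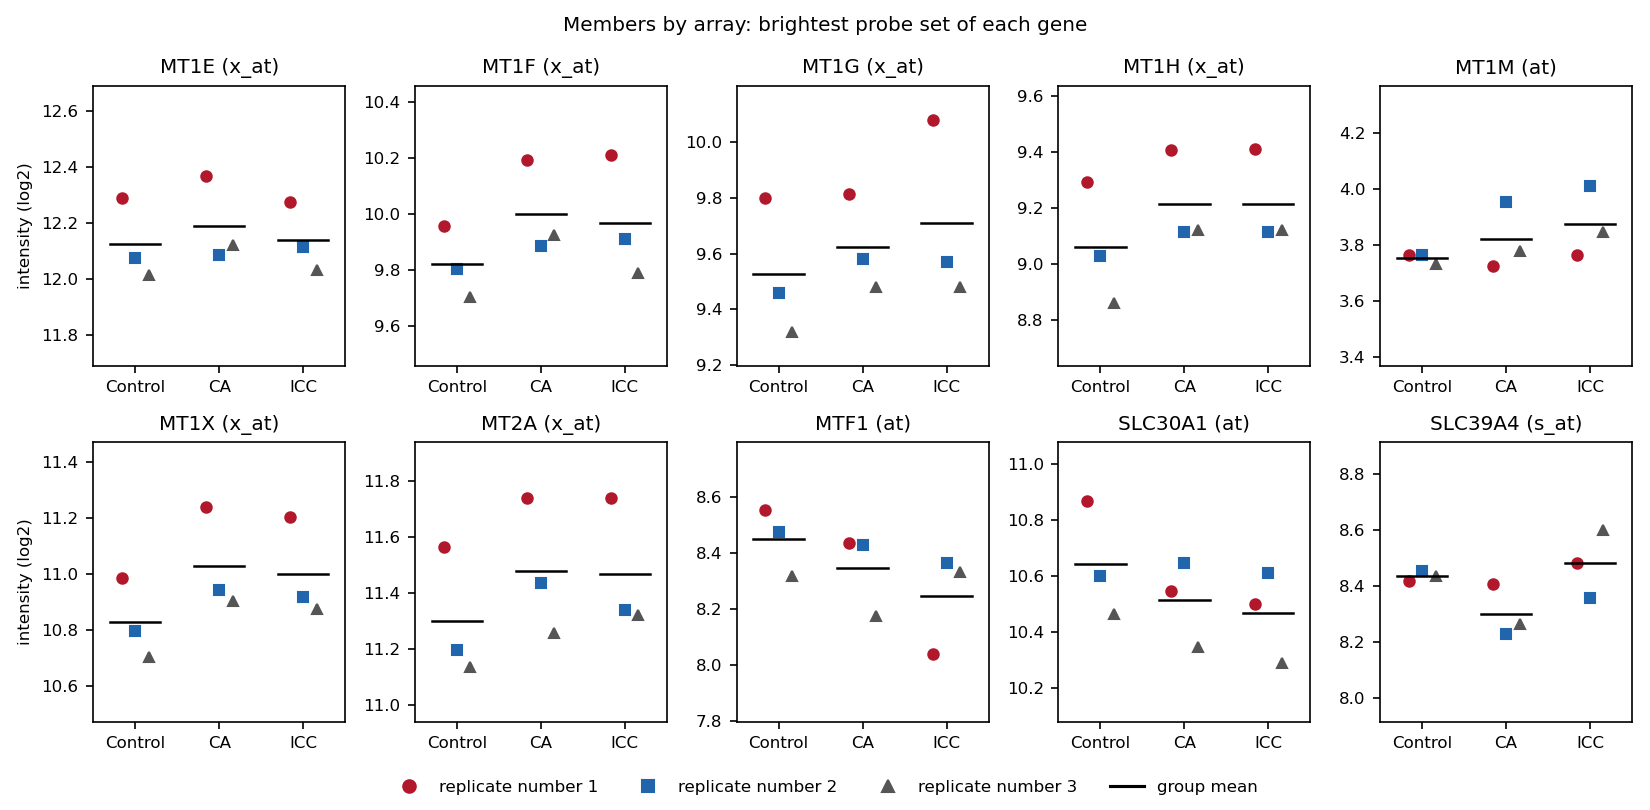
Log2 intensity of the brightest probe set of each of the 10 genes, by group, with 1 point for each array, its shape and colour giving the replicate number, and a bar for the mean of 3 arrays. Every panel spans 1 log2 unit. In MT1E, MT1F, MT1G, MT1H, MT1X and MT2A the array of number 1 was highest in each of the 3 groups.

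Taking the 11 metallothionein probe sets together, the median difference from Control was +0.15 in ICC, with 11 above 0 (10 after either rescaling), and +0.15 in CA, with 10 above 0. The medians over all 54613 probe sets tested were +0.014 and -0.0047. In 8 of 11 probe sets all 3 pairs were higher in ICC, against 18% of all probe sets, and in 9 of 11 in CA, against 12.3%. Bright probe sets with the suffix _x_at had a share of 30.1% in ICC and 21.9% in CA and medians of +0.052 and +0.021, which lie above those of all probe sets and below those of the metallothioneins. The part of this probe set class in the differences was not tested. Groups did not overlap in 0 of 11 in ICC, where 7.08% of all probe sets had all ICC arrays above Control, and in 1 of 11 in CA (3.79%), the second MT1E probe set.

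None of these 11 passed an adjusted p under 0.05 in limma in either comparison, where the background was 0% of all probe sets in both, and 0 had an unadjusted p under 0.05, against 4.79% of all probe sets higher in ICC and 2.18% in CA. With the replicate number as a block 0 passed as well, against 0.00366% of all probe sets in ICC and 0% in CA. At an unadjusted p under 0.05 with the block there were 4 of 11 in ICC, all higher, against 6.72% of all probe sets higher, and 5 of 11 in CA, all higher, against 3.31%. The lowest adjusted p with the block was 0.330 in ICC and 0.524 in CA. Both comparisons share the same Control arrays. The metallothionein median moved between +0.050 and +0.23 in ICC and between +0.056 and +0.24 in CA as single arrays were left out. In ICC it was +0.050 without ICC array 1, +0.089 without Control array 3 and +0.23 without ICC array 3. In CA it was +0.056 without CA array 1, +0.077 without Control array 3 and +0.24 without Control array 1.

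MTF1, the regulator itself, lay on average below Control. Its brightest probe set stood at 8.55, 8.48 and 8.32 in Control, 8.44, 8.43 and 8.18 in CA and 8.04, 8.37 and 8.33 in ICC. The lowest of these values was that of ICC array 1, and the groups overlapped. The difference was -0.10 ± 0.11 in CA and -0.20 ± 0.11 in ICC, and without ICC array 1 the latter was -0.10. All 3 MTF1 probe sets lay below 0 in both comparisons, between -0.13 and -0.067 in CA and between -0.20 and -0.047 in ICC, and none passed (adjusted p 0.647 or above). Over the 7 probe sets of MTF1, SLC30A1 and SLC39A4, all 3 pairs were lower in 1 in ICC (14.4% of all probe sets) and in 3 in CA (14.9%), and 0 passed.

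SLC30A1 has the same kind of element in its promoter but its bright probe set lay on the other side of Control from the metallothioneins. It stood at 10.87, 10.60 and 10.46 in Control, 10.55, 10.65 and 10.35 in CA and 10.50, 10.61 and 10.29 in ICC. Most of the difference came from array 1, which was the highest of the Controls and lay 0.32 lower in CA and 0.37 lower in ICC, whereas the pair of number 2 lay 0.045 and 0.0099 higher. The means differed by -0.13 ± 0.12 in CA (95% interval -0.41 to 0.14, adjusted p 0.990) and -0.18 ± 0.12 in ICC (-0.45 to 0.098, adjusted p 0.713). A second probe set, at 8.74, lay at -0.033 and -0.11. The third was dim, at 4.37 (the 30.1st percentile), and lay 0.027 and 0.20 above Control. Only this dim probe set of SLC30A1, in which 3 arrays held exactly the same value, thus lay above Control. The brighter ones lay below it in both treatments.

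SLC39A4 was the member in which the group took the largest share of the spread, 52.5% of the sum of squares over the 9 arrays against a median of 22.2% over all probe sets. It stood at 8.42, 8.45 and 8.44 in Control, 8.41, 8.23 and 8.26 in CA and 8.48, 8.36 and 8.60 in ICC. All 3 CA arrays lay below all 3 Controls, as in 4.06% of all probe sets, by 0.14 ± 0.081 on average (adjusted p 0.986). The distance was 0.011 in the pair of number 1, 0.23 in that of number 2 and 0.17 in that of number 3. ICC overlapped with Control, at +0.044 ± 0.081 (adjusted p 0.907), a value that was -0.016 without ICC array 3.

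**Figure D3:**
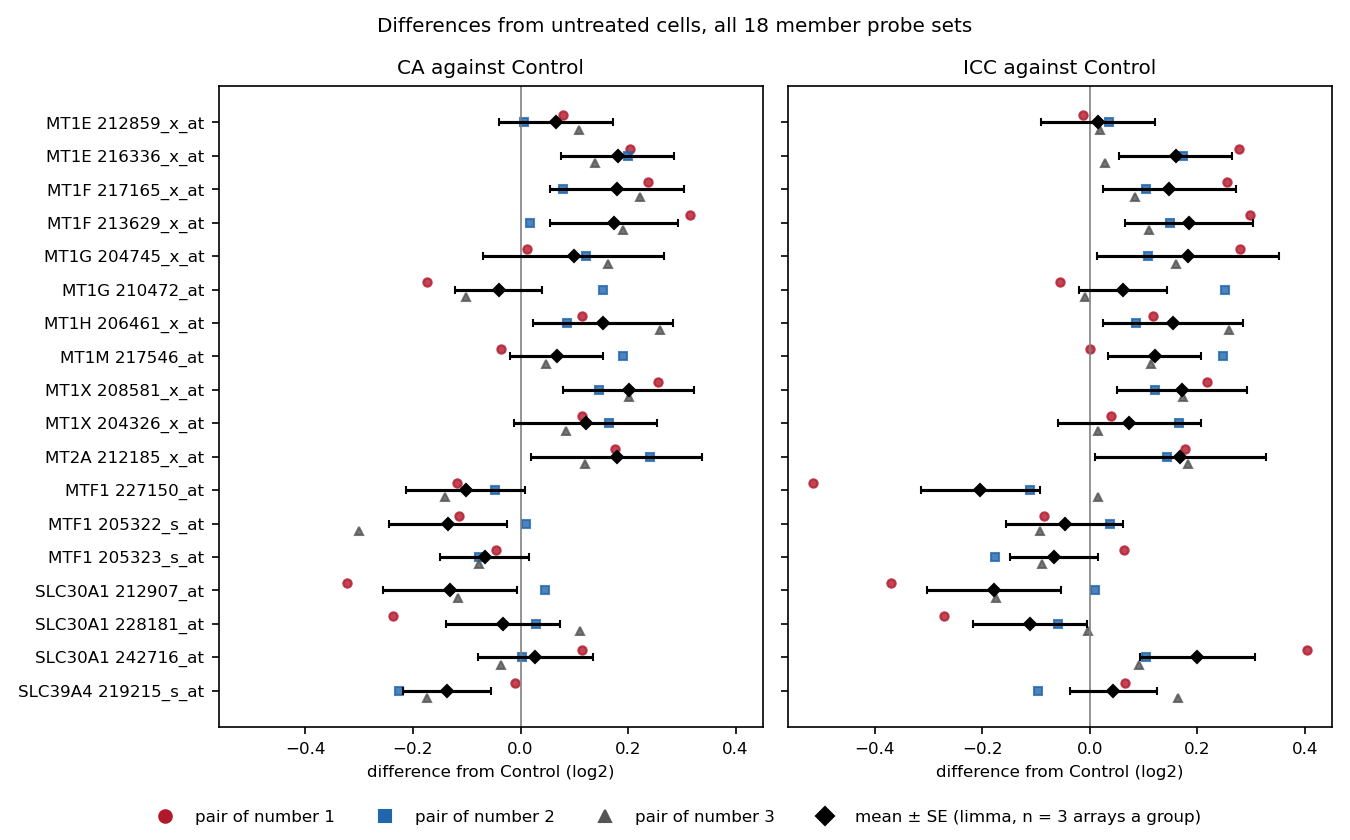
Difference from Control for all 18 member probe sets in CA (left) and ICC (right), log2, with the mean and its SE as a black diamond and the 3 pairs of the same replicate number as coloured points. The bright metallothionein means lie between +0.065 and +0.20 in CA and between +0.015 and +0.19 in ICC, and the MTF1 means lie below 0.

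ICC was then set against CA, at doses of 7 and 1.68 µg/mL that differ, to see whether the beverage and the single compound gave different levels. The metallothionein median was -0.011 with 5 of 11 above 0, against +0.018 over all probe sets. MT2A differed by -0.011 (95% interval -0.36 to 0.34) and MT1X by -0.029 (-0.30 to 0.24). With the replicate number as a block these intervals narrowed to between -0.16 and 0.14 for MT2A and between -0.18 and 0.12 for MT1X. SLC39A4 was 0.18 ± 0.081 higher in ICC than in CA, in 3 of 3 pairs (13.5% of all probe sets), by 0.076, 0.13 and 0.34, with an adjusted p of 1.00. Of the 18 probe sets 0 passed in limma, where 0% of all did, and 1, that of SLC39A4, had an unadjusted p under 0.05 (1.78% of all were higher at that level). With both treatments pooled against Control, 9 of 11 metallothionein probe sets were higher in all 3 pairs (18% of all) with a median of +0.15, and 0 passed with or without the block (0% and 0.00183% of all), while 0 and 6 had an unadjusted p under 0.05 (4.22% and 5.8% of all were higher at that level).

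The larger difference in this family lay between replicate numbers. MT2A had a mean of 11.68 over the 3 arrays of number 1, 11.32 over those of number 2 and 11.24 over those of number 3. With the group in the model, number 1 exceeded number 2 by 0.36 ± 0.069 (1.28-fold, adjusted p 0.0300) and number 3 by 0.44 ± 0.069 (1.36-fold, adjusted p 0.00668), n = 3 arrays of each number. MT1G went from 9.90 in number 1 to 9.54 and 9.43, a distance of 0.36 ± 0.077 and 0.47 ± 0.077 (1.28-fold and 1.39-fold, adjusted p 0.0444 and 0.00848). The second MT1X probe set had means of 8.87, 8.56 and 8.53 and exceeded number 2 by 0.32 ± 0.068 (adjusted p 0.0467). In all 3 the values of number 1 lay above every array of the other numbers, so that these did not overlap. Against number 2 there were 3 of 18 calls, all higher in number 1 (1.38% of all probe sets), and against number 3 there were 6 (2.47%).

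The F test of the number in limma passed for 5 of the 18 member probe sets, all metallothioneins, against 4.72% of all probe sets and 8.35% of those above the median brightness. These were MT2A (adjusted p 0.0115), MT1G (0.0155), the second MT1X set (0.0279), MT1H (0.0374) and the brighter MT1X set (0.0413). MT1F (0.0581 and 0.107) and MT1E (0.0877 and 0.139) did not pass. The dim MT1G set (0.826) and MT1M (0.407) did not either, and in MT1M number 2 had the highest mean (3.91, with 3.75 and 3.79 for numbers 1 and 3). In all 9 _x_at probe sets number 1 was highest within each of the 3 groups, as in 9.79% of all probe sets and 14.9% of the brighter ones, and in 7 of them all number 1 arrays lay above the other 6 (5.17% and 8.44%). Numbers 2 and 3 differed by 0.059 in the median over the 11 metallothionein sets, and 0 of the 18 passed for that difference (0.965% of all).

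The number of calls fell with each array left out. The 5 member calls became 1 without Control array 1, 2 without Control array 2, 1 without Control array 3, 1 without CA array 1, 2 without CA array 2 and 2 without CA array 3. They became 0 without ICC array 1, 3 without ICC array 2 and 2 without ICC array 3. After a second quantile normalization there were 3. Over all probe sets the 2578 calls became 828 to 1792 in the same way, with 828 without Control array 3 and 979 without ICC array 1.

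**Figure D4:**
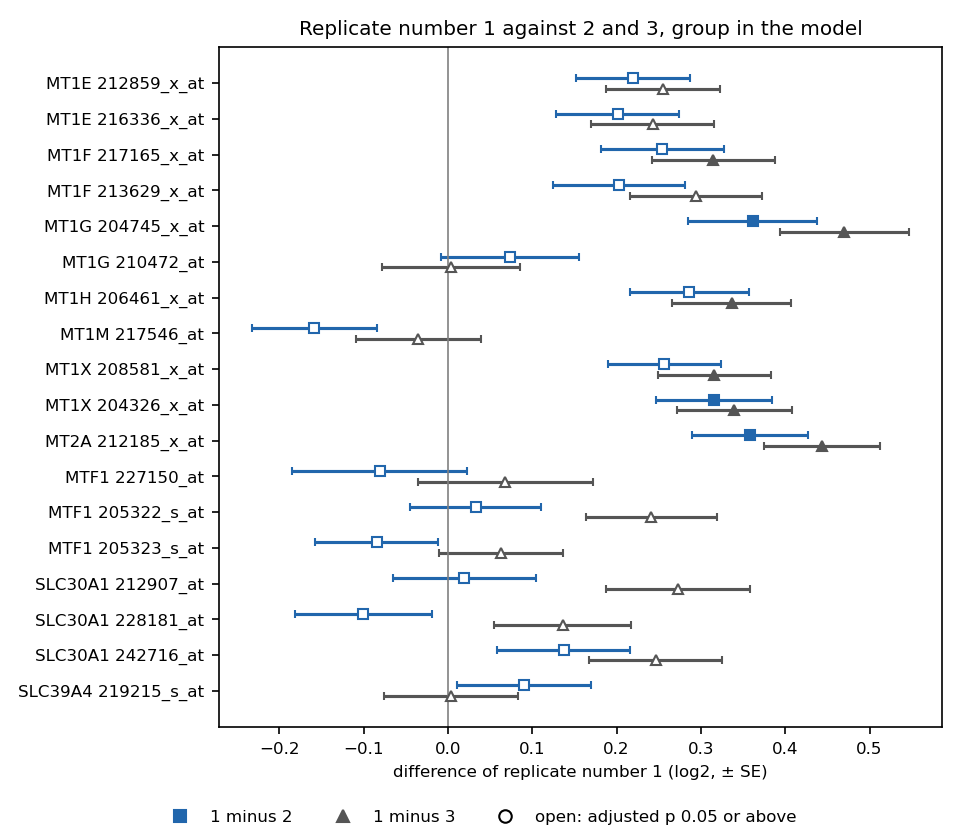
Difference of replicate number 1 from number 2 (squares) and number 3 (triangles) for the 18 member probe sets, log2 with SE, with filled symbols where the adjusted p was under 0.05. The 9 _x_at metallothionein sets lie between +0.20 and +0.47, and MT1M and the dim MT1G set do not share this shift.

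Expressed as shares of the sum of squares over the 9 arrays, the number took a median of 77.1% and the group 18.4% in the 9 bright metallothionein probe sets, leaving 4.5%. The medians over all probe sets were 30.0% for the number and 22.2% for the group, and over those above the median brightness 39.9% and 20.9%. In MT2A the shares were 83.1% and 15.1%, and in the brighter MT1X set 69.5% and 29.0%. SLC30A1 had 58.7% for the number, but there it was number 3 that stood low, at 10.37 against 10.64 and 10.62, with an adjusted p of 0.136. Number 3 was lowest in each group in 4 of the 7 regulator and transporter sets, as in 7.71% of all. SLC39A4 (15.4%) and the brightest MTF1 set (16.7%) had low shares for the number. The other MTF1 sets had higher shares, 64.9% and 55.5%, with adjusted p of 0.161 and 0.480 in the F test.

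**Figure D5:**
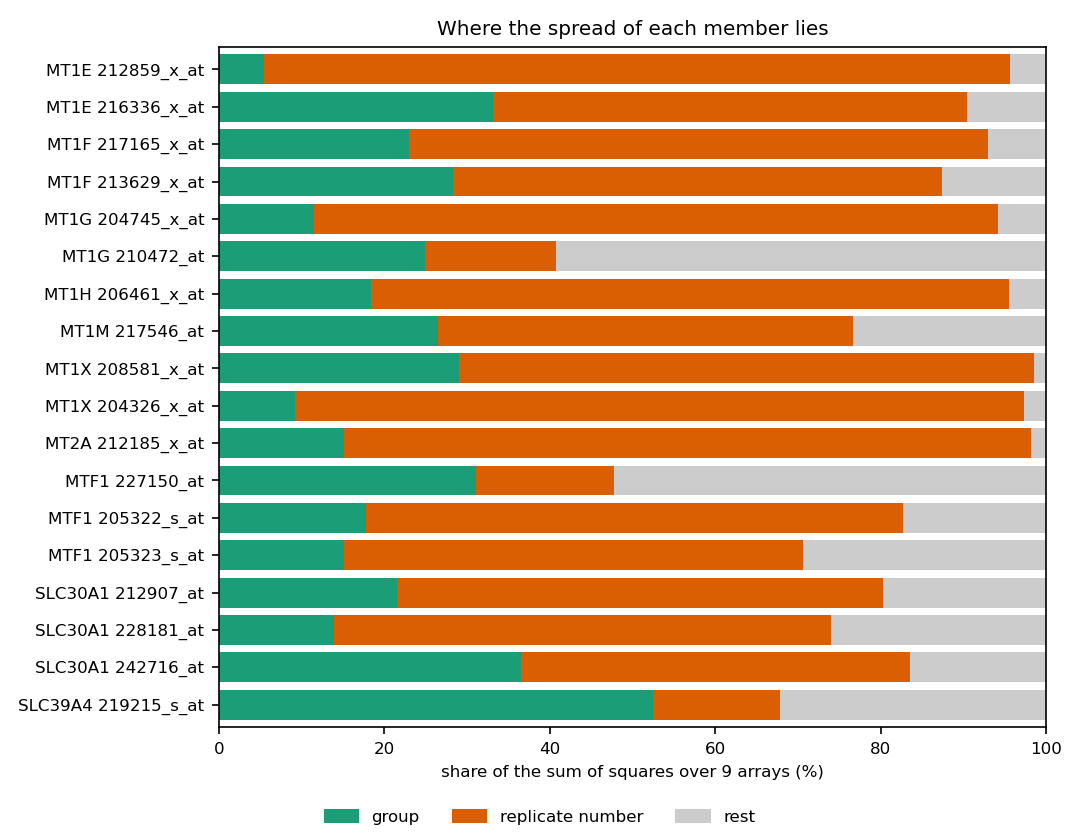
Share of the sum of squares over 9 arrays (%) that lies between groups, between replicate numbers and in the rest, for each of the 18 member probe sets. The number takes between 57.2% and 90.2% in the 9 _x_at metallothionein sets, and the group takes 52.5% in SLC39A4.

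Other measures were also laid out by number, and those of RNA quality overlapped between numbers and were not tested. The 3′ minus 5′ difference of the control probe sets for ACTB, which grows as RNA breaks down, was 0.16, 0.30 and 0.24 on the number 1 arrays of Control, CA and ICC, 0.28, 0.35 and 0.40 on those of number 2 and 0.32, 0.29 and 0.35 on those of number 3. That for GAPDH, in the same order of groups, was -0.0387, -0.0182 and 0.0225 on the arrays of number 1. It was -0.0105, 0.0196 and 0.0096 on those of number 2 and 0.018, 0.0252 and 0.0934 on those of number 3. Within each group it was highest in number 3. Of the markers measured 1 of 8 epithelial (LGALS4, number 2 highest), 1 of 4 leukocyte (CD14, number 1 highest), 0 of 5 fibroblast, 0 of 4 endothelial and 0 of 4 hepatocyte genes passed the F test, while PTPRC lay between 3.45 and 3.79 on all arrays. The F test passed for 4.72% of all probe sets and for 8.35% of those above the median brightness. The part of RNA quality in the metallothionein values was not tested.

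The 9 bright metallothionein probe sets moved as one across the 9 arrays, with Pearson r between 0.804 and 0.978 (median 0.915 over 36 pairs). After the means of group and number were taken away the median r was 0.026 and the range -0.926 to 0.875. These values are descriptive, since the sets have probes that can bind similar transcripts and share arrays and normalization. Against the mean course of the 7 metallothioneins, r was 0.98 for MT2A, MT1X and MT1H and 0.91 to 0.97 for MT1E, MT1F and MT1G. The r was -0.10 for MT1M, 0.30 for SLC30A1, 0.011 for SLC39A4 and -0.18 for MTF1. Each of the 7 metallothioneins is part of that mean, so its r is partly built in, while SLC30A1, SLC39A4 and MTF1 are not part of it.

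Among 8121 other genes ranked by r with that course over the 9 arrays, the most alike were the RNA helicase DDX19A (0.976), the phosphatase PPM1J (0.974), the complex I subunit NDUFV3 (0.972), the mitochondrial prolyl-tRNA synthetase PARS2 (0.970) and GIN1 (0.962). The metallothionein copy MT1HL1 ranked 7th at 0.961. The most opposed were MOB3B (-0.972), hexokinase HK2 (-0.971), the retinaldehyde dehydrogenase ALDH1A1 (-0.970), the TGF-beta receptor TGFBR1 (-0.967) and GPATCH2L (-0.966). They were picked as the extremes of 8121 genes over 9 arrays. Since the metallothionein course itself differed mostly by number, a difference between numbers in these genes follows in part from how they were picked. ALDH1A1 lay 0.61 lower in number 1 than in number 3 (F test, adjusted p 0.00280), MOB3B 0.48 lower (0.0154) and HK2 0.36 lower (0.0284). In the same F test DDX19A (0.0555), GIN1 (0.0578), PARS2 (0.091) and TGFBR1 (0.107) did not pass.

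The rest of the metal handling genes gave no call in either treatment. Of 10 other metallothionein genes listed 3 were measured by a probe set of their own, and 0 passed. MT1HL1, bright at 10.97 and with the suffix _x_at, lay 0.092 ± 0.13 above Control in CA and 0.14 ± 0.13 in ICC. MT3, a metallothionein of the brain, lay 0.29 ± 0.087 and 0.24 ± 0.087 above Control at the 48.8th percentile of all probe sets, and MT4 lay 0.17 ± 0.10 and 0.24 ± 0.10 above it (adjusted p 0.550 or above for these genes). Of the 9 other zinc exporters of the SLC30 family 0 passed in CA or ICC, with medians of +0.016 and +0.031. Their largest differences relative to the spread included SLC30A3, which loads zinc into synaptic vesicles, at +0.24 ± 0.12 in CA and +0.21 ± 0.12 in ICC, and SLC30A6 of the Golgi at -0.15 ± 0.075 and -0.11 ± 0.075.

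Of the 13 other zinc importers of the SLC39 family 0 passed in either treatment. The median was -0.13 in CA with 4 of 13 above 0, and -0.019 in ICC with 5 above 0. Of all probe sets 48% lay above 0 in CA and 54.9% in ICC. SLC39A7, which releases zinc from the endoplasmic reticulum, lay at -0.29 ± 0.11 in CA and -0.13 ± 0.11 in ICC, and SLC39A6 at -0.21 ± 0.079 and -0.11 ± 0.079. SLC39A5 and SLC39A2 lay 0.38 ± 0.13 and 0.29 ± 0.081 above Control in ICC, with adjusted p of 0.546 and 0.497. In ICC against CA 12 of 13 lay above 0 with a median of +0.098, against 57.7% and +0.018 over all probe sets. SLC39A4 lay in the same direction, and 0 of these importers passed. The 11 copper handling genes had medians of -0.044 in CA and -0.014 in ICC with 0 calls, and the copper pump ATP7A was at -0.27 ± 0.17 and -0.34 ± 0.17.

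By replicate number 3 of these 13 importers passed the F test, against 4.72% of all probe sets and 8.35% of those above the median brightness. SLC39A11 was higher in number 1 than in number 3 by 0.35 (F test, adjusted p 0.0263). SLC39A9 and SLC39A10 were lower by 0.36 and 0.39 (0.0397 and 0.0334). Of 9 exporters 0 passed, of 11 copper genes 0 and of the 3 other metallothioneins 0 (MT1HL1, adjusted p 0.0517). Glucocorticoids are textbook inducers of MT2A, and of 7 measured genes of their response 3 passed, against the same shares of 4.72% and 8.35%. The kinase SGK1 was highest in number 1, with means of 11.48, 11.02 and 10.69 (adjusted p 0.00146). TSC22D3 had means of 9.36, 9.68 and 8.54 (0.0368) and the phosphatase DUSP1 8.08, 8.58 and 7.79 (0.0374), both highest in number 2. FKBP5 (0.131), KLF9 (0.835), ZBTB16 (0.994) and the receptor NR3C1 (0.615), which is counted in this list, did not pass the F test. The part of this response in the metallothionein values was not tested. None of these 7 passed in CA or ICC.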

How the data were processed

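Biotin-labelled total RNA of 9 HT29 samples was measured on 1 array each, per the labels. RMA made the deposited intensity values, per the submitters' processing notes. Its version is not stated there. The values are linear, so log2 was taken. Of 54675 probe sets 62 Affymetrix controls were left out and 54613 tested. Of these 41091 had 1 symbol in the platform annotation, and the Entrez identifiers of all 10 members matched RefSeq.

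Groups were compared with limma 3.58.1 in R 4.3.3, as a linear model of 3 groups over 9 arrays without a block, with Benjamini-Hochberg adjustment over all probe sets and a threshold of 0.05. The replicate number was tested by an F test with the group in the model. Figures were drawn with matplotlib 3.10.9. The tests were checked on simulated data. Permuting 3 arrays against 3 gives no exact p below 0.1, so no permutation test was used. Deviations of same-numbered arrays from their group means correlated between 0.327 and 0.518 in all 9 pairs across genes (others between -0.436 and 0.0839), so the numbers were taken as pairs and the block added beside the results.

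The members, the lists of related genes and the markers were chosen with earlier results of these data known. The brightest probe set of each member is given by array, up to 3 genes of each other list by the largest moderated t, and the 5 genes most and least alike among those above the median probe set with an SD of at least 0.1. For the replicate number all measured genes of the glucocorticoid list are named.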

Additional observations from a re-analysis of the deposited data

How the results depend on the processing

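No member passed the test against Control, between treatments or for the pooled treatments under any alternative tried: a replicate block, 1 probe set per gene, a second quantile normalization, arrays centred on medians, probe sets above the median only, no _x_at or _s_at sets, only the groups compared, and each array left out. With the block the calls over all probe sets went from 0 to 2 in ICC against Control and to 1 for the pooled treatments, and the block changed no other call. Calls for the replicate number went from 2578 to 1217 with 1 probe set per gene and lay between 828 and 1792 with 1 array left out. Those among members went from 5 to 3 after a second quantile normalization, to 7 among probe sets above the median (3425 calls over all of those), to 0 without _x_at and _s_at sets, which leaves 6 member sets, and to between 0 and 3 with 1 array left out. The metallothionein median in ICC against CA, -0.011, turned to +0.078 without _x_at and _s_at sets, where only MT1M and the dim MT1G set remain, and lay between -0.12 and +0.076 with 1 array left out. MT1E in ICC against Control turned to -0.012 after a second quantile normalization (-0.0118) and after centring (-0.0116), and lay between -0.053 and +0.096 with 1 array left out. MT1H in ICC against CA, +0.0015, turned to -0.0023 and -0.029 under the same 2 scalings and lay between -0.097 and +0.099 with 1 array left out.

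Other signs also turned with 1 array left out. Against Control, MT1G (+0.18 with all arrays) lay between -0.0020 and +0.32 and SLC39A4 between -0.016 and +0.11 in ICC, and MT1E between -0.023 and +0.15 and MT1G between -0.0048 and +0.24 in CA. MT1E lay between -0.017 and +0.12 for the pooled treatments. In ICC against CA the ranges were -0.12 to +0.038 for MT1E, -0.15 to +0.065 for MT1F, -0.10 to +0.20 for MT1G, -0.015 to +0.12 for MT1M, -0.13 to +0.076 for MT1X, -0.15 to +0.12 for MT2A, -0.19 to +0.0017 for MTF1 and -0.13 to +0.042 for SLC30A1. Why these values moved was not tested. The number of arrays limits every comparison, and probes that can bind several paralogs limit what can be said of a single metallothionein.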
